A study of Mus musculus with 33 samples.

Results

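A set of 10 genes of the leptomeningeal fibroblasts and barrier cells that cover the cortex were followed through 33 frontal cortex libraries: the transporters Slc22a6, Slc6a13 and Slc13a4, the small leucine-rich proteoglycans Dcn, Lum, Ogn and Fmod, the growth factor Igf2 with its binding protein Igfbp2, and the retinoic acid enzyme Aldh1a2. They are 10 of the 21565 genes in the table. They were selected on the WT data, as a group of meningeal genes to which Slc22a6 belongs, and Slc22a6 was chosen by its rise after sleep loss in WT mice. For this reason the WT values of the 10 genes are given as a description, with no p-value, and counts of WT genes past the thresholds for a call support nothing here. The tests reported for the 10 genes are those in the Mef2c f/f and Mef2c-cKO mice.

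The study asked how loss of sleep changes expression in the frontal cortex of male mice on a C57BL/6J background, 8 to 19 weeks old, and whether the transcription factor MEF2C takes part. Mice slept freely (control sleep, CS), were kept awake for 6 hr on a slow treadmill (sleep deprived, SD), or were kept awake for 4 hr and then left to sleep for 2 hr (recovery sleep, RS), after 36 hr in constant darkness, and all tissue was taken at ZT 6. WT mice formed 6 CS, 7 SD and 7 RS libraries. Mef2c f/f mice, which carry loxP sites around exon 11 of Mef2c and no Cre, formed 4 CS and 3 SD libraries, and Mef2c-cKO mice, which carry the same loxP sites and a Camk2a-Cre transgene, formed 3 CS and 3 SD libraries. The Camk2a promoter drives Cre in excitatory neurons of the forebrain and not in fibroblasts, although some Mef2c-cKO animals had recombination in the tail, and so a heterozygous loss in all cells. No RS group of Mef2c f/f or Mef2c-cKO mice was analysed here. Mef2c itself was at 1079 to 1404 rescaled CPM in Mef2c f/f and at 956 to 1724 in Mef2c-cKO libraries, and a level over the whole gene does not check the loss of 1 exon.

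Leptomeningeal fibroblasts and arachnoid barrier cells line the brain and form the barrier between the cerebrospinal fluid and the blood of the dura. They carry transporters that clear organic anions, GABA and sulphate, lay down a matrix of collagen with small leucine-rich proteoglycans, and secrete IGF-II and retinoic acid, which act on the tissue below during development. In a piece of cortex they are a thin outer layer, so their transcripts make up a small part of the RNA.

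Values are counts per 1000000 reads of a library (CPM) divided by a scaling factor per library, here called rescaled CPM. Recovered totals were 44395583 to 249046089 reads in WT and 18935045 to 94678945 in the other libraries. The WT libraries were made into CPM in another way than the others, since their listed genes sum to 925580 to 985958 and those of every other library to 1000000, so levels in WT and the other mice are set side by side and not tested against each other. Among WT libraries, CS 5 and 6 stood apart in most of the 10 genes, as described below, and the fold changes from WT CS are given with and without them. The listed genes of CS 5 and 6 summed to 982010 and 979929, and those of CS 1 to 4 to 938651 to 963363. In WT SD the sum was 947390 in library 1 and 979658 to 985958 in the others. CS 5 and 6 also had the fewest reads in WT CS, 44395583 and 59185672. Without them, WT CS and SD therefore also differ in this sum in nearly all libraries, and its part was not tested. Among marker genes of meningeal cells that are not among the 10, Foxc2 was the only one of 40 at 0 in every library, and the summed level of the 40 was 463.5 to 1879.7 rescaled CPM. Several of them, such as Nnat, Cldn11 and Ptgds, are also made by neurons or oligodendrocytes.

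The promoter sequences are shown for the 4 genes whose deviations followed those of the other members most closely over the WT libraries. They are RefSeq sequences of GRCm38.p6, the 250 bases before the annotated start, 5′ to 3′ on the strand of the gene, and capitals mark the motifs found.
Slc22a6, chr19:8617746-8617995, plus strand: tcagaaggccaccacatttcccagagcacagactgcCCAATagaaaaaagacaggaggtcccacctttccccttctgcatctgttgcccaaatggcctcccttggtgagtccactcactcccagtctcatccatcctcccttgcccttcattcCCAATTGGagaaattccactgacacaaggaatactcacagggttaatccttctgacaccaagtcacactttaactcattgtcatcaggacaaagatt
Slc13a4, chr6:35308127-35308376, minus strand: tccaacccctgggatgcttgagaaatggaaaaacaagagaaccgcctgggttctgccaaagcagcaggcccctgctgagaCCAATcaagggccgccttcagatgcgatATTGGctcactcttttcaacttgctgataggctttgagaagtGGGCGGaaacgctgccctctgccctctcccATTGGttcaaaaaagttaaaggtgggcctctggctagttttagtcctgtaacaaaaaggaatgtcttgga
Fmod, chr1:134037004-134037253, plus strand: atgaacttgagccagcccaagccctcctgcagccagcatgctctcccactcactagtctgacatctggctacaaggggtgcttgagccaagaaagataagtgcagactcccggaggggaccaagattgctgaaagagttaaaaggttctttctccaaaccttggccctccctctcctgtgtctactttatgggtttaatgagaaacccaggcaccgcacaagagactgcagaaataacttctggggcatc
Aldh1a2, chr9:71215539-71215788, plus strand: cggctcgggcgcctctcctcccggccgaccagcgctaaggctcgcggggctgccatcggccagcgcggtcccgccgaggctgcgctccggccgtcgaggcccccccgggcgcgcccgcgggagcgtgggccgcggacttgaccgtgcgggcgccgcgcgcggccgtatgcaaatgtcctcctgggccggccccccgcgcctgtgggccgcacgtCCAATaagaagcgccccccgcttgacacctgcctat
The 6 motifs below were searched on both strands: the MEF2 consensus, the forkhead core TGTTTAC, the nuclear receptor motif AGGTCA, the GC box GGGCGG, the CCAAT box and the TATA box TATAAA. Matches may overlap, as the paired CCAAT boxes of Slc22a6 do, where a forward match at -97 to -93 and a reverse match at -94 to -90 share bases. Slc22a6 and Slc13a4 held 3 CCAAT boxes each, Aldh1a2 held 1 at -36 to -32, and Fmod held none of the 6 motifs. Promoters were matched for 8 of the 10 genes, at 14 starts in all. The CCAAT box was found at 5 of the 14 starts (in 5 genes) and in 33.9% of 32841 mouse promoters, and the GC box at 5 of the 14 (in 4 genes) and in 32.7%. The MEF2 consensus and the forkhead core were found at none of the 14 starts, and at 2.92% and 3.17% of all promoters. The base composition differed widely, from 77.6% GC in the promoter of Aldh1a2 to 48.4% in that of Slc22a6 and 42% in that of Ogn.

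The genes lie on 7 chromosomes of GRCm38 (GENCODE M21), and only Dcn and Lum are close neighbours. Slc22a6 spans chr19:8618039-8628299 on the plus strand, Slc6a13 chr6:121300227-121337733 (plus) and Slc13a4 chr6:35267957-35308131 (minus). Dcn spans chr10:97479609-97518143 and Lum chr10:97565128-97572703, both on the plus strand, Ogn chr13:49608046-49624501 (plus) and Fmod chr1:134037254-134048277 (plus). Igf2 spans chr7:142650766-142666816 (minus), Igfbp2 chr1:72824503-72852474 (plus) and Aldh1a2 chr9:71215789-71296243 (plus). All are protein-coding genes, and each value counts reads over the whole gene. Ogn overlaps Cenpp, a gene on the other strand that is in the table, and Slc6a13 and Aldh1a2 each overlap a gene on the other strand that is not in it. Libraries were stranded, but the strand setting of the count is not given in the sources used here.

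In WT mice the 3 transporter genes were higher in SD than in CS. Slc22a6, the organic anion transporter OAT1, had a lowest, median and highest level of 0.444, 2.32 and 4.62 rescaled CPM in CS (n = 6), 6.21, 7.53 and 9.43 in SD (n = 7) and 0.856, 4.82 and 8.68 in RS (n = 7). Every SD library lay above every CS library, while RS overlapped both. The mean went from 2.28 ± 1.59 (SD) to 7.47 ± 1.1, a log2 fold change of 1.74 with a standard error of 0.32. Slc6a13, the GABA and taurine transporter GAT2, had 1.9, 4.51 and 9.25 in CS, 10.1, 11.4 and 20.6 in SD and 3.21, 7.62 and 13.3 in RS. Its SD and CS libraries did not overlap either, and the log2 fold change was 1.44 (SE 0.27). Slc13a4, a sodium and sulphate cotransporter, had 0.37, 6.32 and 16.6 in CS, 12.7, 13.8 and 15.3 in SD and 1.24, 8.0 and 13.6 in RS. Here CS spanned 44.9-fold and its highest library lay above every SD library, whose range was 1.20-fold. The log2 fold change was 1.75 (SE 0.59). Since the tissue is a bulk sample, fewer cells of a type and less RNA per cell cannot be told apart.

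The proteoglycans of the matrix were less uniform in WT. Fmod (fibromodulin, which binds collagen fibrils) had 0.691, 6.48 and 14.9 rescaled CPM in CS, 11.5, 12.8 and 19.2 in SD and 1.94, 8.79 and 13.4 in RS, and the log2 fold change from CS to SD was 1.54 (SE 0.48). Ogn (osteoglycin) had 0.376, 7.21 and 18.1 in CS, 6.72, 10.2 and 13.3 in SD and 1.9, 7.84 and 16.1 in RS, with a log2 fold change of 1.0 (SE 0.59). Its CS libraries reached both below and above all SD libraries. Dcn (decorin) had 3.5, 10.2 and 19 in CS, 8.22, 11.2 and 13.4 in SD and 4.51, 8.87 and 14.9 in RS, and its means of 11 ± 6.74 (SD, n = 6) in CS and 10.7 ± 1.72 (n = 7) in SD were close, with a log2 fold change of 0.19 (SE 0.33). Lum (lumican) was low in every WT library, at 0.938 to 2.27 in CS, 1.22 to 2.99 in SD and 0.619 to 2.24 in RS, on 38 to 378 reads a library, and its log2 fold change was 0.38 (SE 0.19).

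Igfbp2, a secreted protein that binds IGF-I and IGF-II, had 5.64, 8.68 and 15.6 rescaled CPM in CS, 12.8, 17.9 and 23.9 in SD and 8.63, 11.2 and 19 in RS. Its log2 fold change from CS to SD was 0.92 (SE 0.20), and 1 CS library reached into the range of SD. Aldh1a2, the enzyme that makes retinoic acid from retinal, had 0.676, 3.3 and 6.64 in CS, 6.61, 7.66 and 12.3 in SD and 1.49, 5.2 and 9.95 in RS, with a log2 fold change of 1.52 (SE 0.39). The lowest SD library lay just below the highest CS library. Of the 9 members that passed the filter on low values in this contrast, 6 met the thresholds for a call, all of them higher in SD, as did 45.1% of all 12913 genes in either direction. The median log2 fold change of the 9 was 1.44, and that of all genes was 0.04. Slc22a6, Slc13a4, Lum, Ogn and Aldh1a2 reached 1 CPM in 4 of the 6 CS libraries and Fmod in 5, so they passed the filter through SD alone. The members were also chosen on this contrast, so nothing is read from the count or the median. Of all calls, 3182 were higher and 2643 lower, and with CPM as deposited 6106 and 801, where the median of all genes moved to 0.30 and that of the members to 1.69.

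**Figure D1:**
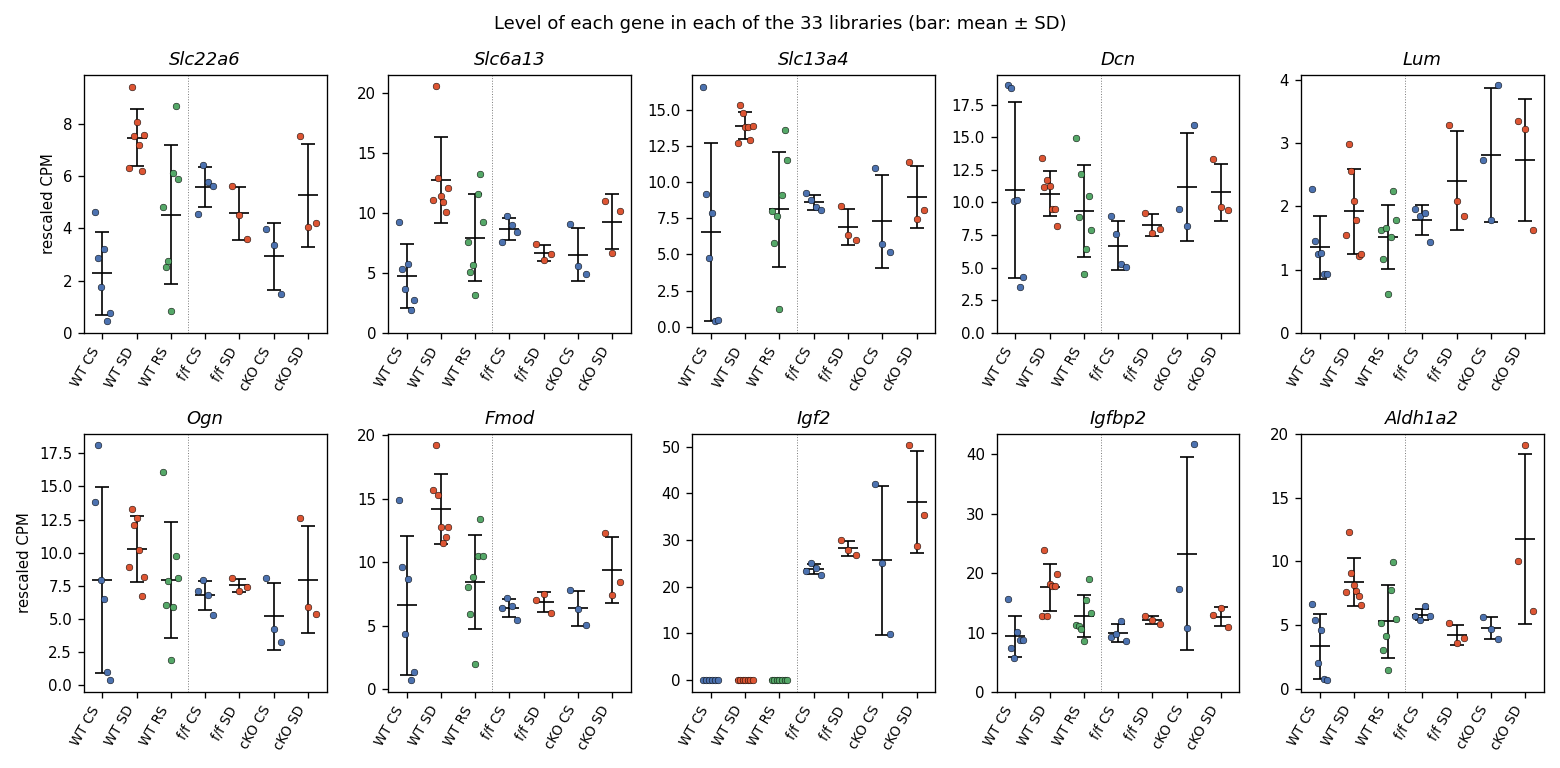
Rescaled CPM (vertical axes) of each of the 10 genes in each of the 33 libraries, by genotype and sleep condition, with 1 point a library, coloured blue for CS, red for SD and green for RS. Black bars give the mean ± SD of a group, and the dotted line parts WT from the other mice. The WT CS points are spread widely in most genes, Igf2 is listed at 0 in WT, which is not read as absence of expression, and single Mef2c-cKO libraries are high for Igfbp2 (41.7) and Aldh1a2 (19.1).

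From SD to RS the 9 genes were lower in WT on average, with log2 fold changes from -0.95 for Slc13a4 (SE 0.33) to -0.25 for Dcn (SE 0.20) and a median of -0.74. No member met the call thresholds, and 0.0232% of 12921 genes did. From CS to RS, 7 of the members passed the filter on low values, since Slc22a6 and Lum were below 1 CPM in 1 or more libraries of both groups. Their log2 fold changes lay between -0.06 for Dcn (SE 0.38) and 0.80 for Slc13a4 (SE 0.69), with a median of 0.69, and none was called, while 17.5% of 12752 genes were. These contrasts share libraries with the one that chose the members. The RS values lay between those of CS and SD in the mean of every measured member but Dcn and Ogn, whose RS means were 9.33 ± 3.52 and 7.94 ± 4.36 (SD, n = 7).

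A few WT libraries were low or high for most members together. CS 5 and CS 6 lay below the other 4 CS libraries in 8 of the 9 genes. For Slc13a4 they had 0.37 and 0.432 rescaled CPM, against 4.76 to 16.6 in the other 4, and for Ogn 1.01 and 0.376 against 6.52 to 18.1. Igfbp2 was the exception, with 8.69 and 8.68 against 5.64 to 15.6. The summed level of the 9 genes was 18.3 and 20.2 in CS 5 and 6, 41.4 to 102.6 in the other CS libraries and 83.8 to 128.2 in SD. CS 1 was the highest CS library in 8 of the 9 genes and SD 2 the highest SD library in 8. RS 4 was the lowest RS library in all 9, with a summed level of 24.4 against 49.5 to 100.4 in the other RS libraries.

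Without CS 5 and 6, the median log2 fold change from CS to SD was 0.67 (1.44 with them), and that from CS to RS was -0.05 over 9 genes. Slc22a6 and Slc6a13 still had SD libraries above all 4 remaining CS libraries, with log2 fold changes of 1.19 and 1.06. Slc13a4 fell to 0.63, Fmod to 0.67 and Aldh1a2 to 0.86, while Ogn went to -0.09 and Dcn to -0.38. Igfbp2 stayed at 0.90. The Slc22a6 mean in SD was 2.4 times that of the 4 remaining CS libraries, and the Dcn mean 0.734 times. Those 4 libraries also had lower sums of listed genes than every SD library but SD 1, as given above, and the part of this was not tested.

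Other markers moved with these libraries. The 40 other meningeal genes summed to 463.5 and 476.3 rescaled CPM in CS 5 and 6, 632.1 to 1143.9 in the other CS libraries and 1060.9 to 1640.2 in SD. Border macrophage markers (8 genes) summed to 5.37 and 6.07 rescaled CPM in CS 6 and 5 and to 6.76 in RS 4, against 9.67 to 17.1 in the other CS libraries and 15.7 to 22.3 in SD. Red blood cell markers (7 genes) went the other way in the low libraries, with 118.1 and 105.0 in CS 5 and 6 and 28.5 to 68.4 in the other CS libraries, and were at 98.0 to 285.3 in SD. Choroid plexus markers (12 genes), read for tissue from the ventricles, summed to 282.5 and 288.4 in CS 5 and 6, 264.8 to 652.5 in the other CS libraries and 192.4 to 257.3 in SD. Their defining gene Ttr was at 170.2 in CS 1, at 54.0 in CS 3 and at most at 21.0 in any other WT library. In SD it was at 1.02 to 7.78, a small part of the sum, so the sum is a weak measure of such tissue. Pericyte and smooth muscle markers (11 genes) summed to 174.3 and 197.2 in CS 5 and 6, 201.4 to 280.1 in the other CS libraries and 199 to 239 in SD. Endothelial markers (10 genes) summed to 278.7 and 281.6 in CS 5 and 6, 286.4 to 358.2 in the other CS libraries and 248 to 293 in SD. In RS 4 the 2 sums were 171.2 and 222.6, the lowest among the RS libraries. The part of the dissected meninges, of blood or of other tissue in the values of the 9 genes was not tested.

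Base composition also moved with the WT values. Across 12460 genes, which are not independent, the log2 fold change from CS to SD followed the GC content of the transcript with a Spearman rho of 0.721. The proteoglycans with the smaller changes, Dcn, Lum and Ogn, had the lowest GC contents of the 10 genes (37.4%, 41.9% and 36.3%), and Igfbp2 the highest (62.1%). With a trend on GC content and length removed, Igfbp2 went from 0.92 to 0.15, Ogn from 1.0 to 1.48 and Dcn from 0.19 to 0.67. Slc22a6 (50.7% GC) was at 1.65 and Aldh1a2 (50.6% GC) at 1.42, near their values without the correction. The median of the 9 genes was 1.27 with the trend removed.

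**Figure D2:**
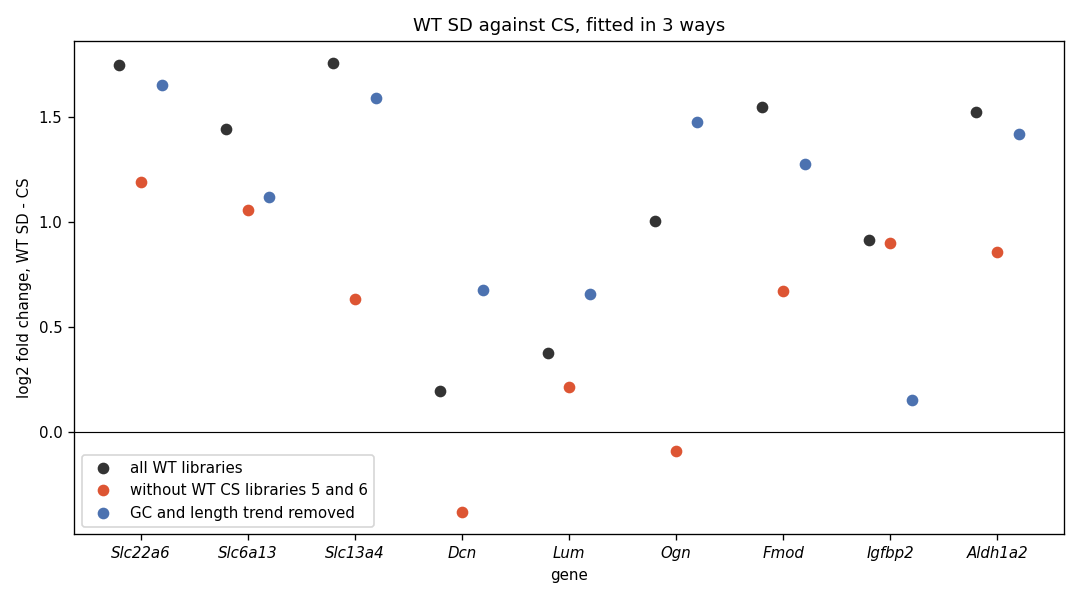
Log2 fold change from CS to SD in WT mice (vertical axis) of the 9 genes that passed the filter, from all WT libraries (dark), without CS 5 and 6 (red) and with the trend on GC content and length removed (blue). Slc22a6 and Slc6a13 stay above 1 in all 3, Dcn and Ogn fall to -0.38 and -0.09 without the low CS libraries, and Igfbp2 drops to 0.15 with the trend removed.

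Igf2, which encodes a growth factor made by the meninges and the choroid plexus and is imprinted, was listed at 0 in 19 of 20 WT libraries, and the other held 1 read, out of 2384550953 reads over the 20. In the 13 other libraries Igf2 had 403 to 3692 reads. The rescaled CPM were 23.4, 25.2, 24.1 and 22.5 in Mef2c f/f CS, 30.0, 27.9 and 26.9 in Mef2c f/f SD, 42, 25.0 and 9.9 in Mef2c-cKO CS and 50.3, 28.8 and 35.4 in Mef2c-cKO SD. A total of 6 genes had at most 3 reads over all WT libraries and a CPM of at least 1 in all 13 others, and 494 showed the opposite pattern. The sets thus differ in which genes received reads, so the 0 is given as listed, is not read as absence of expression, and no fold is given. In GENCODE M21 Igf2 shares its strand with Gm49394 and Mir483 and overlaps Igf2os on the other strand, and none of these is in the table.

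In Mef2c f/f mice none of the 10 genes passed the test after SD (limma, adjusted p from 0.183 to 0.719). In this comparison 0.0403% of 12410 genes were called. Slc22a6 was at 4.55, 6.42, 5.78 and 5.62 rescaled CPM in CS and at 5.62, 4.53 and 3.59 in SD, and the groups overlapped (log2 fold change -0.27, SE 0.16, adjusted p = 0.406, limma). Slc6a13 was at 7.59, 9.73, 9.05 and 8.44 in CS and at 7.4, 6.1 and 6.58 in SD. All 3 SD libraries lay below CS, with a log2 fold change of -0.35 (SE 0.12, limma adjusted p = 0.195). Aldh1a2 was at 5.69, 5.43, 6.5 and 5.68 in CS and at 5.13, 3.63 and 3.97 in SD, again without overlap (-0.42, SE 0.13, limma adjusted p = 0.183). Slc13a4 was at 9.22, 8.77, 8.3 and 8.08 in CS and at 8.33, 6.37 and 5.98 in SD (-0.31, SE 0.13, limma adjusted p = 0.25). So the 3 transporters and Aldh1a2 had negative values. Here and in the comparisons below, a lack of overlap between groups this small is a description only. The share of all genes whose groups did not overlap was not counted.

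The proteoglycans and the IGF genes had positive values in the same mice. Igf2 was higher in all 3 SD than in all 4 CS libraries (log2 fold change 0.24, SE 0.08, limma adjusted p = 0.195). Igfbp2 was at 9.2, 9.76, 12 and 8.54 in CS and at 12.8, 12.1 and 11.5 in SD (0.30, SE 0.12, limma adjusted p = 0.255). Lum, Dcn, Ogn and Fmod had 0.32, 0.32, 0.15 and 0.09. The log2 fold change followed GC content with a Spearman rho of -0.303 over 12408 genes, and with the trend on GC content and length removed Ogn was at -0.05 and Dcn at 0.16. Without adjustment 5 of the 10 genes had a p under 0.05 in limma, as did 2111 of all 12410 genes. edgeR and DESeq2 on the recovered reads also called none of the 10. In CS the levels varied less between mice than in WT: the coefficient of variation of Slc13a4 was 5.92% in Mef2c f/f CS and 94.0% in WT CS, and that of Ogn 16.1% and 88.1%. In SD this did not hold for every gene, since Slc13a4 had 18.3% in Mef2c f/f and 6.79% in WT, and Slc22a6 22.3% and 14.7%. Red blood cell markers summed to 123.1 to 182.4 in CS and 56.3 to 105.1 in SD, and meningeal markers other than the 10 genes to 866.8 to 930.9 and 901.5 to 1001.5. Excitatory neuron markers summed to 2358.7 to 2740.0 in CS and 2820.8 to 2971.1 in SD, and the 17 other anion, GABA and sulphate transporters to 682.0 to 748.0 and 657.0 to 676.4, so both lists were apart. Their part in the result was not tested.

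In Mef2c-cKO mice 7 of the 10 genes had a positive log2 fold change after SD and none passed the test (limma, adjusted p from 0.998 to 0.999), where 0.0234% of 12810 genes did. Slc22a6 was at 3.97, 3.35 and 1.5 rescaled CPM in CS and at 7.53, 4.05 and 4.21 in SD, so the groups did not overlap, with a log2 fold change of 0.77 (SE 0.36). Aldh1a2 was at 5.64, 4.66 and 3.93 in CS and at 10, 19.1 and 6.1 in SD, also without overlap (1.09, SE 0.37). Igfbp2 had the lowest value, -0.63 (SE 0.43), which was -0.11 without CS library 8, with 17.3, 10.8 and 41.7 in CS and 12.9, 14.2 and 11 in SD. The other members lay between -0.04 for Lum (SE 0.32) and 0.75 for Igf2 (SE 0.48). Without CS library 8, Igf2 was at 0.19, Slc22a6 at 0.42, Ogn at 0.31, Slc13a4 at 0.13 (0.32 with it), Lum at 0.20 and Dcn at 0.26 (-0.01 with it). Without SD library 6, Aldh1a2 was at 0.68, and without SD library 5, Ogn was at 0.20 and Slc22a6 at 0.51. One of the 10 genes, Aldh1a2, had an unadjusted p under 0.05 in limma, as did 391 of all 12810 genes, and edgeR and DESeq2 called none of the 10. Red blood cell markers summed to 10.7 to 108.2 in CS and 76.1 to 141.6 in SD, and their part in these values was not tested.

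The 3 Mef2c-cKO CS libraries differed from each other in which genes were high. Library 8 was the lowest of the 3 in 7 genes, among them Igf2 (9.9), Slc22a6 (1.5) and Ogn (3.24), and the highest in Igfbp2 (41.7), Dcn (15.9) and Lum (3.91). Red blood cell markers summed to 10.7 in library 8 and to 63.1 and 108.2 in libraries 5 and 7. Library 5 was the highest of the 3 in the other 7 genes, with 42 for Igf2 and 11 for Slc13a4, and its choroid plexus markers summed to 654.7, with Ttr at 295.3, against 205.3 and 194.1 in libraries 7 and 8, with Ttr at 2.71 and 2.11. The part of choroid plexus or of blood in these values was not tested. Among the Mef2c-cKO SD libraries, library 5 was highest in 8 genes, and library 6 in Aldh1a2 and Igfbp2.

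Between genotypes, the question was whether the Mef2c-cKO genotype goes with other levels of these genes. The paper reports germline recombination in most of the Mef2c-cKO CS samples. A heterozygous loss in all cells and the loss in excitatory neurons cannot be told apart here. In CS none of the 10 passed the test, while 7.67% of 12681 genes did (limma). Slc22a6 came closest, with all 3 Mef2c-cKO libraries below all 4 Mef2c f/f libraries, a log2 fold change of -0.90 (SE 0.27) and an adjusted p of 0.0699 in limma. Igfbp2 had 0.99 (SE 0.37, limma adjusted p = 0.123), or 0.46 without Mef2c-cKO library 8, and Dcn 0.68 (SE 0.26, limma adjusted p = 0.128). Without library 8, Slc22a6 was at -0.55 and Dcn at 0.41. Without adjustment 3 of the 10 genes had a p under 0.05 in limma, as did 3557 of all 12681 genes, so nothing is read from this count. edgeR called none, and DESeq2 called 2, Slc22a6 (-0.95, DESeq2 adjusted p = 0.0247) and Igfbp2 (1.21, DESeq2 adjusted p = 0.0109). Over the alternatives, the adjusted p of Slc22a6 lay between 0.0247 and 0.166.

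In SD 1 of the 10 genes passed, where 15.1% of 12774 genes did. Aldh1a2 was higher in all 3 Mef2c-cKO libraries (10, 19.1 and 6.1 rescaled CPM) than in the 3 Mef2c f/f libraries (5.13, 3.63 and 3.97), with a log2 fold change of 1.24 (SE 0.34, limma adjusted p = 0.04). The adjusted p lay between 0.0125 and 0.126 over the alternatives and passed in edgeR and DESeq2. It did not pass with no filter on low values (0.0691), with the trend on GC content and length removed (0.0581), without any 1 of the 3 Mef2c f/f libraries (0.0873 to 0.126) or without Mef2c-cKO library 5 (0.0814). Dcn was also higher in every Mef2c-cKO library, with 0.35 (SE 0.14, limma adjusted p = 0.131). Of the other genes, 7 had positive values up to 0.42 for Slc6a13 (SE 0.18) and Ogn had -0.03 (SE 0.27). Without Mef2c-cKO library 5, Dcn was at 0.19. Without Mef2c-cKO library 6, 4 of the 10 genes were called, and 2447 of 12862 genes in all. Igf2 (0.57), Slc6a13 (0.63) and Fmod (0.54) were 3 of them, beside Aldh1a2, whose log2 fold change was then 0.83 (1.24 with library 6).

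The response to SD did not pass a test of difference between the genotypes for any of the 10 genes (limma interaction, adjusted p from 0.461 to 0.798), and 1 of 12860 genes did, 0.00778%. The difference was positive for the transporters, at 1.05 for Slc22a6 (SE 0.40), 0.85 for Slc6a13 (SE 0.29) and 0.64 for Slc13a4 (SE 0.32), and highest for Aldh1a2, at 1.52 (SE 0.40, limma adjusted p = 0.461). It was -0.93 for Igfbp2 (SE 0.45), -0.36 for Lum and -0.33 for Dcn. Without Mef2c-cKO CS library 8 these values were -0.41, -0.13 and -0.06, and Slc22a6 was at 0.70 and Aldh1a2 at 1.40. Without adjustment 3 of the 10 genes had a p under 0.05 in limma, as did 1005 of all 12860 genes. edgeR called none and DESeq2 called Aldh1a2 (1.76, DESeq2 adjusted p = 0.0248). The median difference was 0.46 for the 10 genes and -0.0022 for all genes. It was 2.34 for the 5 red blood cell markers fitted, with 0 called, and 0.18 for the 36 other meningeal genes fitted. The part of blood in these values was not tested.

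**Figure D3:**
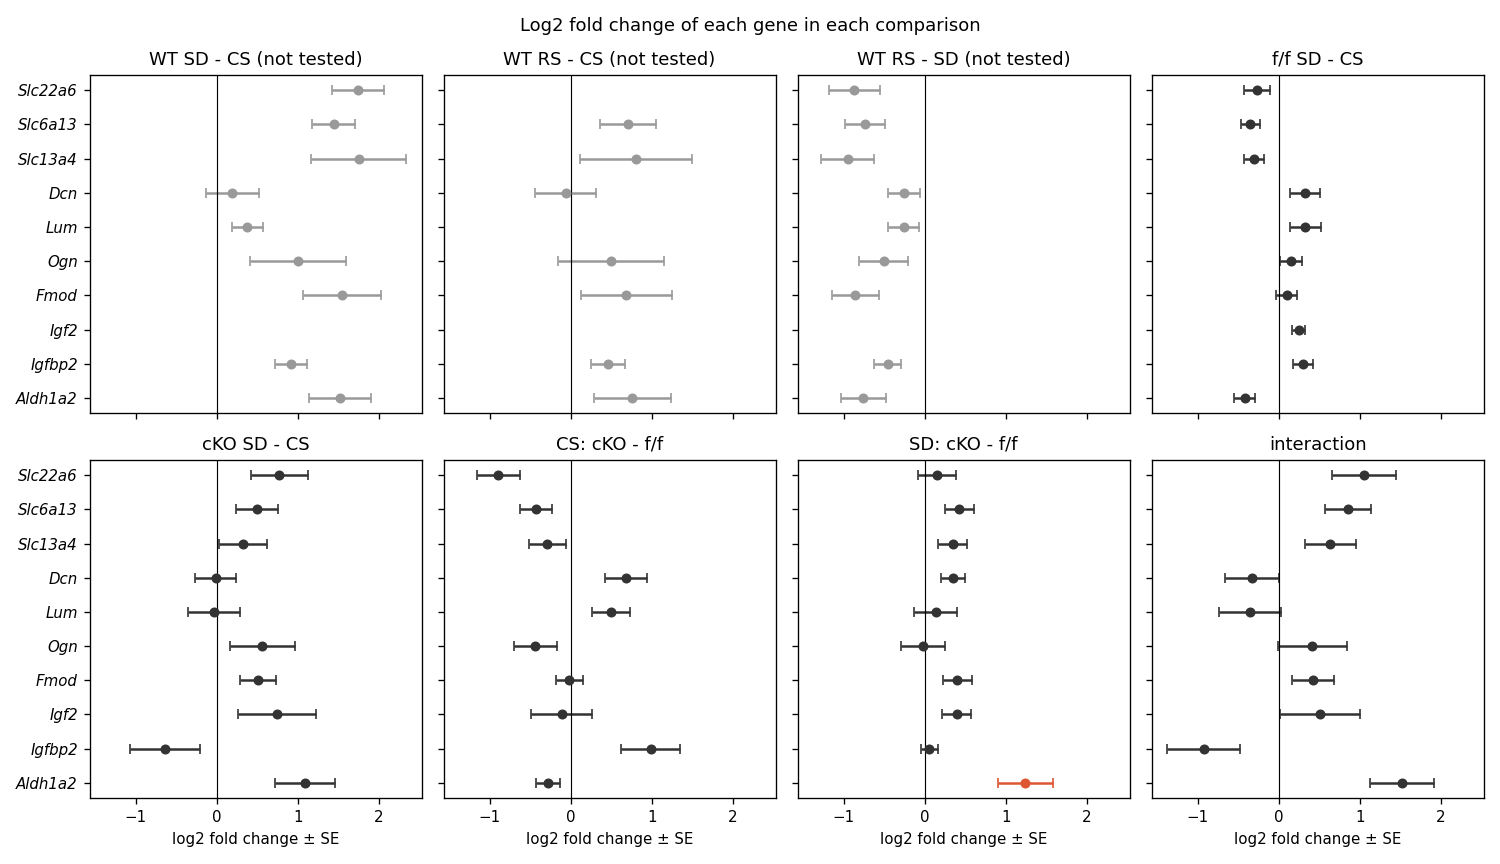
Log2 fold change ± SE (horizontal axes) of each gene in each of the 8 comparisons, with 1 panel a comparison. Grey points are WT contrasts, which were not tested, black points did not pass the test, and the red point, Aldh1a2 in SD between genotypes (1.24), did. The WT values from CS to SD are all above 0, while the transporters and Aldh1a2 are below 0 in Mef2c f/f.

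To find the genes whose pattern was most like that of the members, each library's log2 value was set against its group mean and correlated over the 33 libraries, as a description, since the libraries share depth, dissection and base composition. The 10 genes closest to the mean of the 9 members, Igf2 left out, were F13a1, a border macrophage gene (r = 0.948), Cdh1 (E-cadherin of the arachnoid barrier, 0.936), Aebp1 (0.931), Itih2 (0.909), Cped1 (0.908), Myoc (0.901), Gjb2 (connexin 26, 0.9), Pcolce (a collagen processing factor, 0.897), Prg4 (lubricin, 0.896) and Ddr2 (a collagen receptor, 0.893). Over the 20 WT libraries these r were 0.917 to 0.965. Over the 13 others they were lower, 0.812 for F13a1, 0.854 for Itih2, 0.438 for Cdh1 and -0.079 for Myoc. The genes closest to Slc22a6 were Ptgds (prostaglandin D synthase, 0.944), Aebp1 (0.938), Slc6a13 (0.932), Fmod (0.91) and Cdh1 (0.9). For Ptgds the r was 0.949 over WT and 0.915 over the other libraries.

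Among themselves, the 9 members had a median r of 0.786 over the 20 WT libraries, and 32 of the 36 pairs were above 0.5. The highest was that of Slc13a4 and Fmod, 0.98. The WT libraries include CS 5, CS 6 and RS 4, where Slc13a4 lay at -2.29, -2.19 and -2.09 from its group mean. In WT SD it lay between -0.12 and 0.14. No r was computed without these libraries. Over the 13 Mef2c f/f and Mef2c-cKO libraries the median was 0.176, and 13 of the 36 pairs were above 0.5. The pair with the highest value there was Ogn and Fmod, 0.903, and the lowest was Slc22a6 and Igfbp2, -0.543. Igfbp2 followed the others least in WT as well: its r with the mean of the other members was 0.483, while Aldh1a2 had 0.971, Fmod 0.966, Slc13a4 0.952 and Slc22a6 0.951. Outside WT, Igfbp2 had its highest r with Lum (0.72) and Dcn (0.613), the genes that shared its high value in Mef2c-cKO CS library 8.

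**Figure D4:**
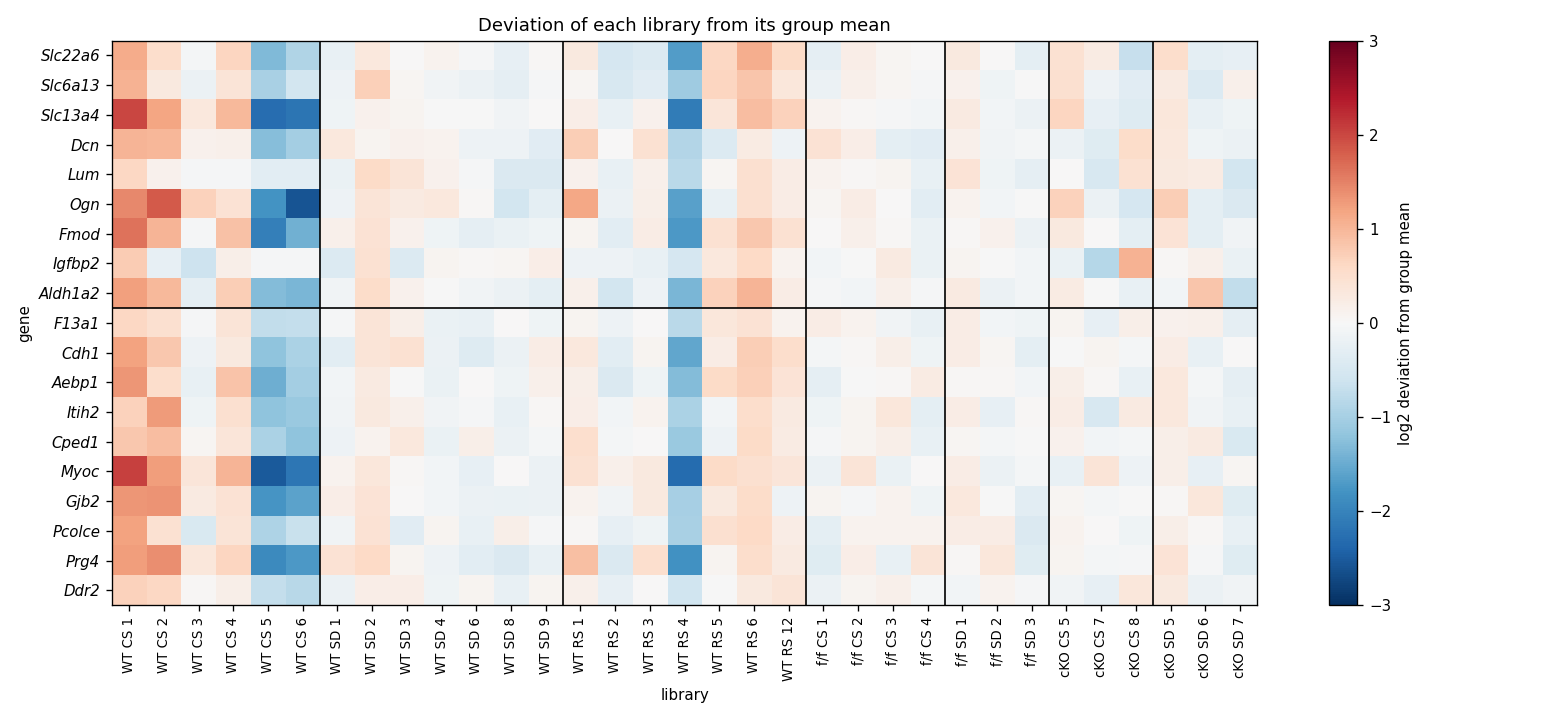
Deviation of each of the 33 libraries (columns, by group) from its group mean on the log2 scale (colour, from -3 in blue to 3 in red) for the 9 members above the black line and the 10 genes most like their mean below it. WT CS 5, CS 6 and RS 4 are blue and CS 1 red in nearly every row, while in the 13 libraries on the right only Igfbp2 in cKO CS 8 (1.05) lies more than 1 from its group mean, followed by Igfbp2 in cKO CS 7 (-0.85) and Aldh1a2 in cKO SD 6 (0.82).

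The other genes of the same pathways are given by their counts. The lists were written with earlier results of these data known. Of 40 other leptomeningeal and arachnoid barrier genes, 36 were fitted in each Mef2c comparison. None was called after SD in either genotype, with median log2 fold changes of 0.05 in Mef2c f/f and 0.18 in Mef2c-cKO (all genes -0.0043 and -0.0054). Between genotypes 4 were called higher in Mef2c-cKO in CS, where 7.67% of all genes were called, and 9 in SD, where 15.1% were, and none was lower. These shares count both directions: of all genes, 402 were called higher and 571 lower in CS, and 1162 and 765 in SD. The same holds for the lists below. The largest differences in SD were those of Cemip, which degrades hyaluronan (3.26, SE 0.16), Nnat (2.03, SE 0.19), Zic1 (1.52, SE 0.17), a transcription factor of the meninges and of some neurons, and Spp1 (1.38, SE 0.28), with limma adjusted p-values of 2.34e-05, 0.000609, 0.00134 and 0.0145. In WT, 19 of the 36 passed the same thresholds as higher in SD and none as lower (median 0.78, all genes 0.04), led by Slc47a1 (1.84) and Ptgds (1.57). Of all 12913 genes 45.1% passed in either direction, 3182 as higher and 2643 as lower.

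Of 16 retinoic acid genes fitted besides Aldh1a2, 6 were called higher in Mef2c-cKO than in Mef2c f/f mice in SD and none lower, beside 15.1% of all genes called (median 0.41, all genes 0.01). Crabp1, which binds retinoic acid in the cytoplasm, had 1.34 (SE 0.17, limma adjusted p = 0.00253) and the receptor Rxrg 1.22 (SE 0.31, limma adjusted p = 0.0322). In CS 1 of 14 was called, Cyp26b1, which breaks down retinoic acid (1.03, SE 0.26, limma adjusted p = 0.0458). After SD none of 15 was called in Mef2c f/f and none of 17 in Mef2c-cKO. In WT 9 of 15 passed the thresholds as higher in SD, beside 45.1% of all genes in either direction.

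Of 13 other IGF genes fitted between genotypes, 4 were called higher in Mef2c-cKO in CS (7.67% of all genes called) and 3 in SD (15.1%), and none was lower. Igfbpl1 had the largest difference (1.88 in CS and 1.97 in SD, SE 0.35 and 0.18), and in CS Igf1 had 0.82, Igfbp3 0.81 and Igf2bp2 0.78. Their medians were 0.09 in CS and 0.01 in SD, and those of all genes 0.03 and 0.01. None was called after SD in either genotype. Among other transporters for anions, GABA and sulphate, 12 were fitted. In Mef2c-cKO 1 was higher and 2 lower in CS (7.67% of all genes called), and 2 higher and 2 lower in SD (15.1%). The citrate transporter Slc13a5 was lower in Mef2c-cKO in both conditions (-0.92 in CS, SE 0.21, and -0.75 in SD, SE 0.11), Slc26a6 was higher in CS (0.69) and Slc13a3 higher in SD (0.78), and Slco1a4, which is also an endothelial marker, lower in SD (-0.40). Of the other small leucine-rich proteoglycans, 5 or 6 of 11 were fitted and only Bgn (biglycan, which is also one of the 40 meningeal genes) was called between genotypes, in SD (0.68, SE 0.13, limma adjusted p = 0.00996). Beside the 15.1% of all genes called in SD, nothing is read from this count.

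Markers of other cells were also called between genotypes, where 7.67% of all genes were called in CS and 15.1% in SD. In SD, 4 of 6 choroid plexus markers fitted were higher in Mef2c-cKO and 1 lower, with Aqp1 at 1.87, Prlr at 1.13, Kl at 1.08 and Clic6 at 0.95. The summed level of all 12 was lower there (150.2 to 225.7 against 243.7 to 281.8). Ttr was at 2.0 to 5.83 in Mef2c f/f SD, a small part of the sum, so the sum is a weak measure of choroid plexus. In CS 1 was higher. Of 11 excitatory neuron markers, 5 were lower in Mef2c-cKO SD, with Rorb at -0.89, Nrgn at -0.66 and Cux2 at -0.62, and 1 in CS. Of 5 red blood cell markers fitted, 2 were lower in Mef2c-cKO in CS, Hbb-bt (-2.11) and Alas2 (-1.51), and none was called in SD. Pericyte and smooth muscle markers gave 1 call of 10 in SD (Vtn, 0.33), border macrophage markers none of 3, and endothelial markers 1 of 10 in CS (Flt1, -0.50) and 2 of 10 in SD. These counts, and the 1 of 11 excitatory neuron markers in CS, are near the shares over all genes, so nothing is read from them. Summed levels of border macrophage markers were higher in every Mef2c-cKO than in every Mef2c f/f library, at 20 to 21.3 against 15.0 to 19.4 in CS and 23.0 to 29.5 against 16.5 to 22.8 in SD. Those of the 40 meningeal genes were also apart, at 1278.2 to 1425.4 against 866.8 to 930.9 in CS and 1360.0 to 1879.7 against 901.5 to 1001.5 in SD, as were Aldh1a2 and Dcn in SD. The median log2 fold change of the meningeal genes fitted was 0.07 in CS and 0.25 in SD (all genes 0.03 and 0.01). The sums thus do not show that most of these genes were higher. The largest differences in CS were those of Cemip (2.75) and Nnat (1.34), and Nnat is not made by meningeal cells alone. The part of the cells with these markers in the values of the 10 genes was not tested.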

How the data were processed

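RNA from the frontal cortex of 33 mice was sequenced as stranded poly-A libraries (150 bp paired reads). After quality checks in FASTQC and trimming in Trimmomatic, the authors used STAR on mm10 and HTSeq for uniquely mapped reads, and deposited CPM from edgeR. Versions and the annotation are not given in the sources used here. Whole reads were recovered from the CPM: all 711645 values (100%) came within 0.01 of an integer. A count of 0 allows up to 3 reads, for counting error only.

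Each library's CPM was rescaled by its median ratio to the geometric mean of all libraries over 11570 genes, and log2 was taken after adding 0.5. Only the groups compared entered each fit (R 4.3.3, limma 3.58.1, trend), over genes that reached 1 CPM in every library of either group. Calls needed a p of 0.05 or less after Benjamini-Hochberg adjustment over all genes tested, and a log2 fold change of 0.3 or more in size; an interaction needed the adjusted p alone. The fold changes are on the log2(value + 0.5) scale, which understates changes of low genes. The steps for the Mef2c comparisons were tried on simulated counts, with a smaller spread between libraries than most members had in Mef2c-cKO mice. The trial does not show how small a change of these genes could be found. Each library is a mouse, and p-values measure the spread between these mice.

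The members and lists were chosen with earlier results of these data known. Genes named are the members, at most 4 genes a list that were called in a Mef2c comparison (the largest changes first), list genes at 0, and the 5 and 10 genes of most alike pattern; some genes that the rule names are not reported here. The WT changes of Slc47a1 and Ptgds and the levels of Ttr were named after their values were seen. The alternatives tried were another pseudocount (0.1 or 1), the deposited CPM without rescaling, other filters, a natural spline trend on GC content (5 degrees of freedom) and length (4) removed, edgeR 4.0.16 and DESeq2 1.42.0 on recovered reads, 1 fit over 4 groups, a replicate block, and each library left out. The alternative without WT CS 5 and 6 was chosen after seeing the data.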

Additional observations from a re-analysis of the deposited data

Results flagged for a closer look

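In the levels of the members, 37 groups of 4 to 7 libraries were checked for a library far from the others, of which chance gives about 1 in 20, and 1 was found. Slc6a13 in WT SD had 20.6 rescaled CPM in library 2, where the other 6 had 10.1 to 12.9, and the same library was the highest SD library in 8 of 9 members.

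The values of Slc6a13 had opposite signs in WT and Mef2c f/f mice. Every SD library lay above every CS library in WT (log2 fold change 1.44) and below every CS library in Mef2c f/f (-0.35). The difference was not tested, since the sets were made into CPM in different ways, and the genotype and that processing cannot be told apart.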

How the results depend on the processing

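In WT, the median log2 fold change from CS to SD was 1.07 to 1.69 under the alternatives that keep all libraries, 1.13 to 1.65 when single libraries were left out and 0.67 without CS 5 and 6. From CS to RS the median was 0.69, 0.36 in edgeR and 0.35 in DESeq2, 0.34 without CS 5, 0.40 without CS 6 and 0.91 at most without any other library, and it turned to -0.0504 without both. From SD to RS it stayed below 0, at -0.53 to -0.88 with single libraries left out. No member passed a CPM of at least 5 in every library in the contrasts with WT CS, which gave no value there.

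None of the 10 genes was called after SD in Mef2c f/f or Mef2c-cKO under any alternative. Between genotypes in CS, 0 were called and 2 with DESeq2, 2 with 1 fit over the 4 groups and 0 to 2 when single libraries were left out, where the 2, Slc13a4 and Slc6a13, came without Mef2c-cKO library 5. In SD, 1 was called, 0 with no filter and with the GC trend removed, and 0 to 4 with single libraries left out. A CPM of at least 5 in every library left 7 members, of which 0 were called, and Aldh1a2 was not among them. The interaction gave 0, and 1 with DESeq2. The cause of these changes was not tested.

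The replicate numbers are not said to pair mice, and the correlation of same-numbered libraries was 0.047 to 0.265 in Mef2c f/f, 0.069 and 0.15 in Mef2c-cKO and -0.726 to 0.666 in WT. With the number as a replicate block, 0 members were called after SD in Mef2c f/f, 0 in Mef2c-cKO and 0 in the interaction, and the WT medians were 1.20, 0.61 and -0.995, while calls over all genes from CS to SD in WT went from 5825 to 287 and those from CS to RS from 2232 to 4279. Mef2c-cKO and Mef2c f/f share no numbers, so no paired analysis was possible because of this between genotypes. Over all genes, the calls from CS to RS in WT (2232) rested on single libraries: they were 0 without CS 3 or any of RS 3, 5, 6 and 12, 3 without RS 4, and 5154 without CS 5 and 6. DESeq2 called 3420 there, 54 from SD to RS (3 in limma), 467 in Mef2c f/f (5), 25 in Mef2c-cKO (3), 2095 between genotypes in CS (973) and 59 in the interaction (1). With the GC trend removed, 2551 and 637 genes were called from CS to SD and to RS in WT, 122 in Mef2c f/f and 1486 between genotypes in CS, and 1 fit over the 4 groups called 2167 in CS and 1019 in SD (1927). Depth limits the members in single libraries, with as few as 15 reads for Slc13a4, 18 for Slc22a6 and 20 for Ogn in WT CS and 28 for Lum in Mef2c f/f CS.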
